A study of Saccharomyces cerevisiae with 112 samples.

Results

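The mRNA pool of budding yeast after 45 min without glucose was set against that of cells kept in glucose for the same 45 min, using the last time point of a SLAM-seq chase. The comparison comprised 4 of the 112 samples of the series, 2 libraries labelled decay_(-)Glu and 2 labelled decay_(+)Glu, both at t45. All were made from strain KWY165, which is Saccharomyces cerevisiae, and the labels give no genotype, medium or glucose concentration. In SLAM-seq, 4-thiouracil (4TU) taken up by cells enters new RNA and appears in sequencing as T-to-C changes, so a read with such changes (a labelled read) stems from RNA made while 4TU was present. All 4 libraries come from courses that began with labelled RNA, and the chase is the time after labelling, with or without glucose. The other chase libraries (28 in all, at 0, 5, 10, 15, 20, 30 and 45 min) were used to estimate the spread and to place the 45 min state in time, and 4 libraries of total RNA from strain KWY11376 were used for a comparison in another strain. Of these, 2 had 4TU for 30 min in glucose, and 2 are titled as 30 min without glucose with 4TU labelling, without the order of the steps being spelled out. A further 2 libraries of total RNA, titled as without 4TU, served for the background of labelled reads, 1 with glucose and 1 after 30 min without it. The files of 34 samples were used, and the other samples were not analysed here.

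Yeast given glucose ferments it and represses the genes needed for other carbon sources, for respiration and for storage carbohydrates. Loss of glucose relieves this repression through the Snf1 kinase, and falling protein kinase A activity lets the factors Msn2 and Msn4 turn on stress genes. Genes for ribosomal proteins and for ribosome assembly are highly transcribed in glucose and are known to be shut down when it is removed.

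The 45 min libraries held 6537035 and 10423732 reads with glucose and 4725508 and 8045529 without it, over 5560 yeast features, most of them windows near the 3′ ends of genes. The variance between replicates was 8.49 times the counting variance with glucose and 25.5 times without it. These ratios cover features with at least 100 reads summed over the 2 libraries of a condition. For those features depth was not the main limit, and features with fewer reads were not covered. No source says that replicates, or the times of a course, were separate cultures. The p-values therefore measure spread between samples that may be technical. Fewer mRNAs of a gene in every cell and fewer cells with that mRNA cannot be told apart. Coordinates are printed as the deposited tables give them, and no label or header states the build.

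At 45 min 2210 of 5525 genes tested were higher without glucose (40.0%) and 2036 were lower (36.9%), with Benjamini-Hochberg adjusted p-values of edgeR's quasi-likelihood test. A log2 difference of at least 2 was reached by 649 genes that were higher (11.7%) and 538 that were lower (9.74%). The values of the 2 conditions did not overlap in 4892 genes (88.5%). Genes that were higher took 13% and 13.5% of reads in the glucose libraries and 61.1% and 59.0% in those without glucose. These are shares of a library, and the split of the calls moves with the scaling: 2680 higher and 1631 lower with library totals, and 1086 higher and 2831 lower with scaling to the spike-in reads. The median log2 difference of all genes was 0.05 in the main scaling (TMM), 0.37 with library totals and -0.64 with the spike-in. Yeast reads per spike-in read were 91.8 and 77.9 with glucose and 46.4 and 37.6 without it, and the labels do not say how the spike-in was added. The log2 differences below use the main scaling, without over with glucose, with the SE of the fit, and a median is to be read against 0.05. For this comparison, list counts scaled to the spike-in are to be read against the 1086 higher and 2831 lower of all 5525 genes. List medians in that scaling are to be read against -0.64.

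The largest rise was that of POT1 (YIL160C, chromosome IX, 39887 to 40441, minus strand), the thiolase of peroxisomal fatty acid oxidation. Its level was 0.38 and 1.05 CPM (read counts scaled for library size) with glucose and 533 and 409 CPM without it, a log2 difference of 9.19 ± 0.33. The glucose values of POT1 rest on 2 and 9 reads, so the size of its difference and its rank are uncertain. RGI1 (YER067W, chromosome V, 292302 to 292842, plus strand), a gene induced in respiratory growth, stood at 17.8 and 18.3 CPM with glucose and 6456 and 7315 CPM without it. Its paralogue RGI2 stood at 6.75 and 5.85 CPM against 1034 and 938 CPM. In these 3 genes both libraries without glucose lay more than 100-fold above both glucose libraries. The hexokinase gene HXK1 (chromosome VI, 253324 to 253842, minus strand) went from 48.4 and 47.5 CPM to 8922 and 7037 CPM, a log2 difference of 7.38 ± 0.23. HSP30, which encodes a membrane protein that restrains the proton pump, had 4.13 and 3.28 CPM with glucose and 397 and 652 CPM without it, a log2 difference of 7.17 ± 0.42. TMA10, a paralogue of the ATP synthase factor STF2, had a log2 difference of 8.46 ± 0.25, YNL194C, a Sur7 family membrane protein, 8.34 ± 0.27, and EGO4 7.61 ± 0.25. YNL194C, too, had few reads in the glucose libraries, 8 and 27. Each of these differences had an adjusted p of 1.5e-12 or lower in edgeR's quasi-likelihood test, and the lowest was 5.6e-19.

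**Figure D1:**
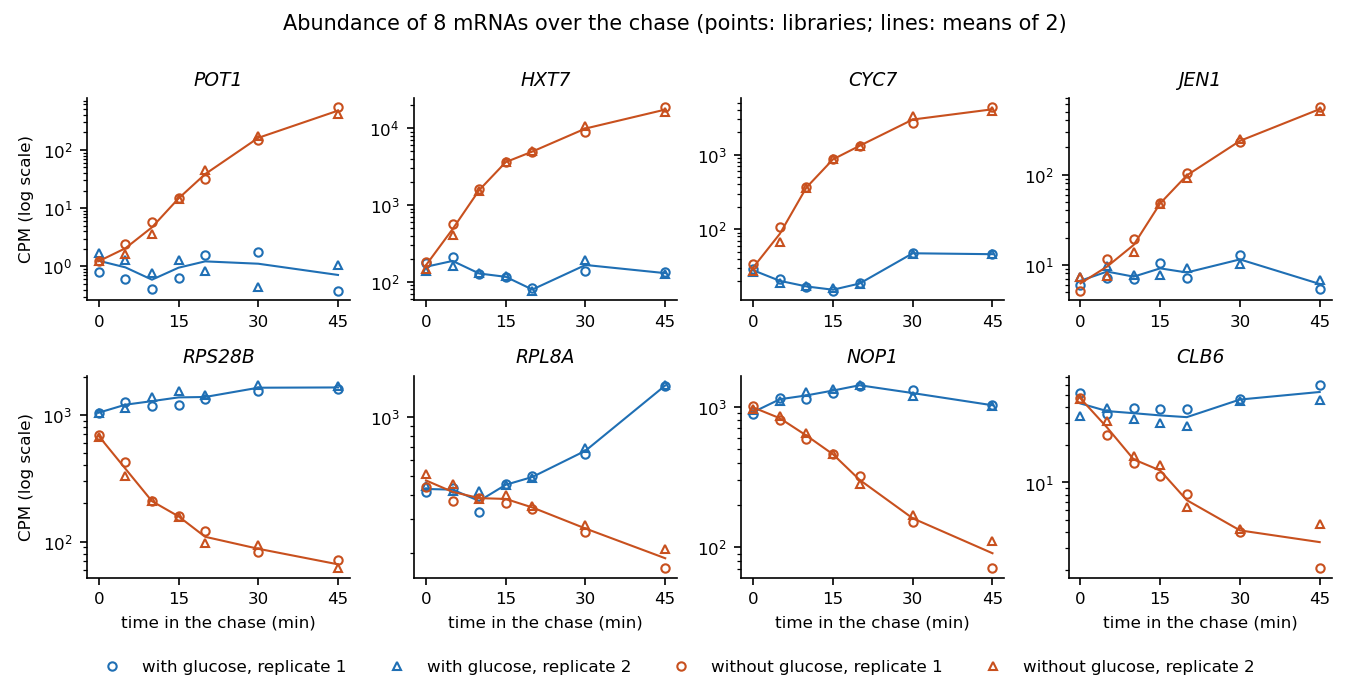
CPM on a log axis against time in the chase for 8 named genes, with a point for each library and a line through the mean of the 2 libraries of a condition. Without glucose POT1, HXT7, CYC7 and JEN1 climb to 45 min and RPS28B, NOP1 and CLB6 fall, while in this scaling RPL8A is higher at 45 than at 0 min with glucose and lower without it.

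Genes of the general stress response were higher in all 34 members tested, with a median log2 difference of 4.65. HSP12, a membrane-stabilising small stress protein, stood at 61.1 and 127 CPM with glucose and 11096 and 10041 CPM without it, a log2 difference of 6.80 ± 0.32. DDR2, a classical stress marker, reached 6.37 ± 0.30, and the lowest member was YGP1, a secreted glycoprotein, at 0.41. HSP12, DDR2 and YGP1, like other list members given beyond the 2 with the smallest p-value, were chosen after their values were seen. Of 27 heat shock chaperones 22 were higher and 1 was lower, with a median of 2.02, and 4 did not pass the test. They included the small heat shock protein gene HSP42 at 5.74 ± 0.23, the mitochondrial HSP78 at 4.89 ± 0.21 and the disaggregase gene HSP104 at 5.12 ± 0.25. YDJ1, a cytosolic Hsp40, was the member that fell, with 342 and 452 CPM with glucose and 148 and 214 CPM without it (-1.13 ± 0.19). The Hsp70 gene SSA2 had a log2 difference of -0.15 and the Hsp90 gene HSC82 of -0.27, and neither passed the test, while their stress-inducible counterparts SSA4 (4.22) and HSP82 (4.26) rose.

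Sugar uptake and phosphorylation changed by isoform. Of 15 members tested 13 were higher and 2 were lower, with a median of 3.13. HXT7 (YDR342C, chromosome IV, 1153853 to 1154466, minus strand), a high-affinity hexose transporter, stood at 133 and 126 CPM with glucose and 18674 and 16390 CPM without it, and took 1.93% and 1.64% of all reads of the libraries without glucose. Its log2 difference was 7.08 ± 0.22, and that of HXT6 (YDR343C, chromosome IV, 1159070 to 1159858, minus strand) was 8.49 ± 0.25. HXT6 and HXT7 are near-identical copies, so the split of reads between them is uncertain. The low-affinity transporter HXT1 fell, from 99.6 and 97.7 CPM with glucose to 27.6 and 36.2 CPM without it (-1.61 ± 0.19), and so did HXT8 (-0.96). HXK2, the hexokinase of growth in glucose, rose by only 0.51 ± 0.15, and GLK1, the glucokinase, by 6.06 ± 0.44. GLK1 stood at 25.3 and 45.3 CPM with glucose and 3322 and 1462 CPM without it, so its libraries lay further apart than those of HXK1.

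Genes for making sugar from other carbon sources rose nearly throughout. In the list of gluconeogenesis, the glyoxylate cycle and acetate or lactate use, 19 of 20 were higher, with a median of 3.04, and MAE1, the malic enzyme, was lower (-0.72). CAT8, the zinc cluster activator of these genes, stood at 2.81 and 3.39 CPM with glucose and 282 and 277 CPM without it. JEN1 (chromosome XI, 23835 to 24437, plus strand), the lactate and pyruvate transporter, stood at 5.44 and 6.79 CPM against 554 and 509 CPM. Their log2 differences were 6.46 ± 0.22 and 6.41 ± 0.22. The key enzymes of the pathway had smaller differences: 1.83 ± 0.55 for FBP1 (fructose-1,6-bisphosphatase), 1.99 ± 0.23 for PCK1 (phosphoenolpyruvate carboxykinase) and 2.88 ± 0.20 for ICL1 (isocitrate lyase). FBP1 was close to the limit of counting, with 3.68 and 2.74 CPM without glucose.

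Of 18 genes of peroxisomal beta-oxidation 17 were higher, with a median of 2.77, and PEX21 (-0.13) did not pass the test. Besides POT1 they included POX1, the acyl-CoA oxidase (5.68), and ECI1, an enoyl-CoA isomerase (4.25 ± 0.18). Of 13 genes for galactose, maltose and sucrose 11 were higher, with a median of 2.69. The maltose transporters MAL11 and MAL31 reached 4.31 ± 0.24 and 4.15 ± 0.21, the invertase gene SUC2 3.25 ± 0.19, and GAL80, the repressor of the galactose genes, fell (-0.39 ± 0.15). Of 21 genes for glycogen and trehalose 20 were higher, with a median of 3.12, and PGM1 (0.02) did not pass the test while its paralogue PGM2, a phosphoglucomutase, rose (5.78 ± 0.17). GPH1, which degrades glycogen, stood at 15.6 and 12.8 CPM with glucose and 1761 and 1616 CPM without it. The genes for glycogen synthesis GSY1 (5.77) and GLC3 (5.77) rose as well.

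Glycolysis did not move as a block. Of 23 genes of glycolysis and fermentation 9 were higher, 5 were lower and 9 did not pass the test, and the median was 0.05. Minor isoenzymes had larger log2 differences than the main ones of the same step. The glyceraldehyde phosphate dehydrogenase gene TDH1 stood at 10.1 and 12.9 CPM with glucose and 1140 and 673 CPM without it (6.28 ± 0.27), while TDH3 had a difference of -0.36 ± 0.18 that did not pass the test. ENO1 rose by 4.61 ± 0.20 and ENO2 fell by 1.05 on the log2 scale, both being enolases. PYK2, the minor pyruvate kinase, rose by 4.52 ± 0.22, and the difference of CDC19, the main one, was -0.20 ± 0.23 and did not pass the test. PDC1, the main pyruvate decarboxylase, had 8067 and 7947 CPM with glucose and 3420 and 4347 CPM without it (-1.04 ± 0.13). Scaled to the spike-in, 5 of the 23 were higher and 13 lower, and the list's median was -0.67. These lie near the values of all genes in that scaling, given above, and are no result about the list.

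All 41 nuclear genes tested for subunits and carriers of respiration were higher, with a median of 1.64 and a range from 0.41 (NDE1) to 6.47 (CYC7). Scaled to the spike-in, 26 of them were higher and 0 were lower. CYC7, the minor isoform of cytochrome c, stood at 45.9 and 46.3 CPM with glucose and 4332 and 3863 CPM without it, while CYC1, the major isoform, rose by 1.09 ± 0.14. The cytochrome oxidase isoforms COX5B and COX5A rose by 3.04 ± 0.15 and 1.64 ± 0.20. NDI1, the internal NADH dehydrogenase, rose by 3.89 ± 0.17. Of 18 genes of the TCA cycle 13 were higher and 4 were lower, with a median of 1.88. SDH4, of succinate dehydrogenase (3.32 ± 0.19), and LSC2, of succinyl-CoA ligase (3.16 ± 0.19), rose, and IDP1, a mitochondrial isocitrate dehydrogenase (-0.75), fell. Of 43 genes of the mitochondrial ribosome 23 were higher and 2 were lower, with a median of 0.39, among them MRPL38 (1.2 ± 0.12) and MRPL24 (1.15 ± 0.13). With the spike-in scaling 1 of the 43 was higher and 10 were lower, and the median was -0.29.

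**Figure D2:**
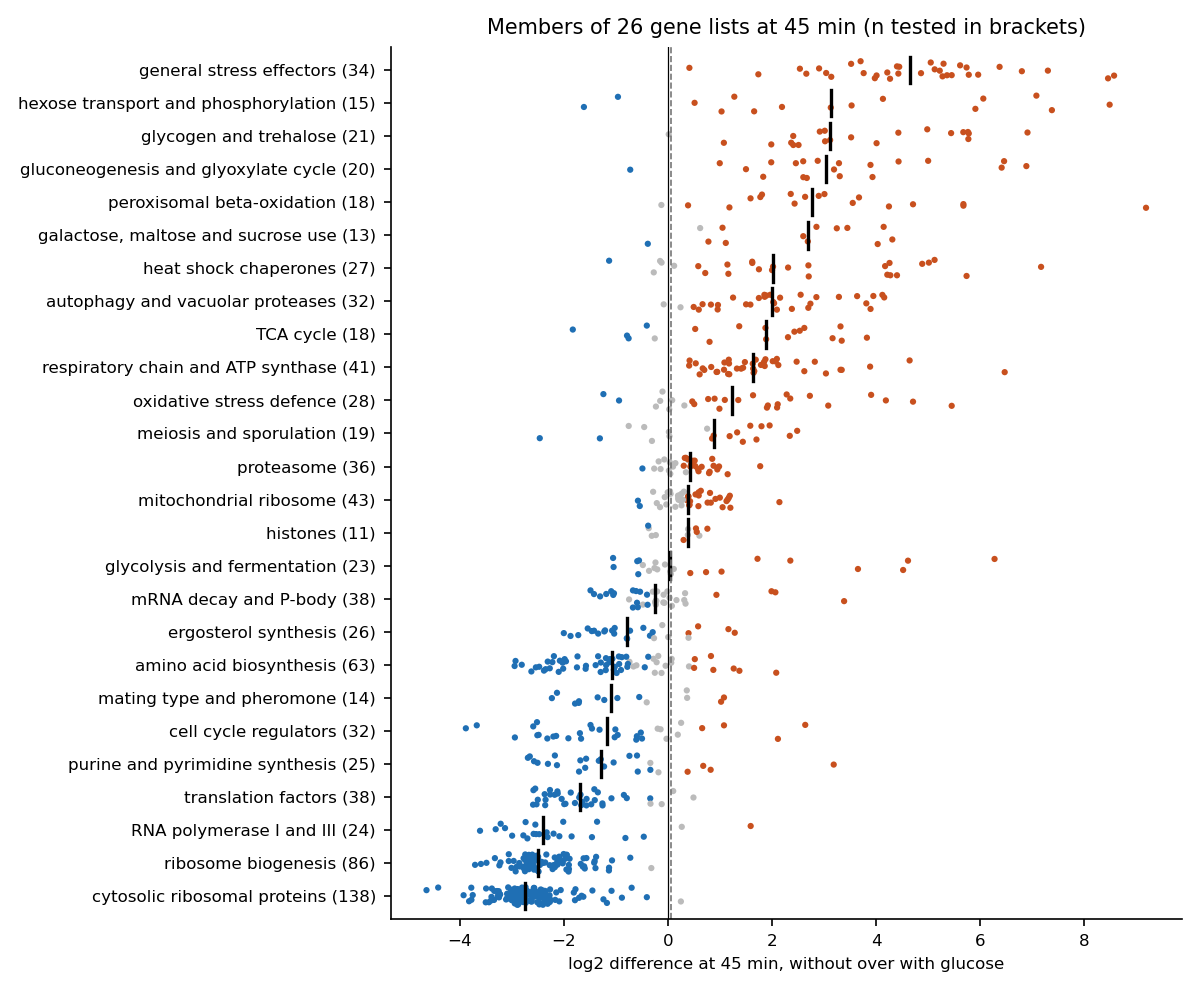
Log2 difference at 45 min of every tested member of 26 gene lists, with the median of each list as a black bar, orange points higher, blue points lower and grey points not past an adjusted p of 0.05. The dashed line is the median of all genes, 0.05. The lists run from cytosolic ribosomal proteins, with a median of -2.75, to general stress effectors, with a median of 4.65.

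Ribosome components and the machinery that makes ribosomes fell. Of 138 genes of cytosolic ribosomal proteins 137 were lower, with a median of -2.75, and RPS20 (0.25 ± 0.23) did not pass the test. Together they took 41.2% and 40.7% of reads in the glucose libraries and 8.95% and 10.004% in those without glucose. RPS28B (YLR264W, chromosome XII, 673085 to 674577, plus strand) fell most among the named genes, from 1606 and 1679 CPM with glucose to 70.9 and 61.2 CPM without it, a log2 difference of -4.64 ± 0.17. RPL7B (YPL198W, chromosome XVI, 174453 to 175143, plus strand) stood at 504 and 550 CPM against 18.6 and 29.9 CPM (-4.41 ± 0.19). RPS17B (-3.93 ± 0.20), RPL35B (-3.82 ± 0.17), RPS22A (-3.78 ± 0.20), RPS9A (-3.78 ± 0.16) and RPS9B (-3.75 ± 0.17) followed. RPS0B, which had the smallest p-value of the list, stood at 2944 and 2727 CPM with glucose and 250 and 287 CPM without it (-3.40 ± 0.12).

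Gene copies of the same ribosomal protein differed in size of fall. RPS28A fell by 2.78 on the log2 scale against 4.64 for RPS28B, RPL7A by 2.97 against 4.41 for RPL7B, and RPS22B by 1.71 against 3.78 for RPS22A, without a test of these differences. Reads of such pairs can be split between copies, so single copies are uncertain, although multimapped reads made up 1.09% or less of the reads of these named genes. The smallest falls were those of RPL15B (-0.40) and the stalk gene RPP2B (-0.70).

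Of 86 genes of ribosome biogenesis 85 were lower, with a median of -2.50, and RRP7 (-0.32) did not pass the test. NOP1, the methyltransferase of box C/D snoRNPs, stood at 1035 and 1011 CPM with glucose and 70.7 and 111 CPM without it (-3.49 ± 0.16). NHP2, of box H/ACA snoRNPs, had a difference of -3.32 ± 0.17, SNU13, of both snoRNPs and the spliceosome, -3.71 ± 0.20, and NIP7, of the large subunit pathway, -3.74 ± 0.18. Of 24 subunits and factors of RNA polymerases I and III 22 were lower, with a median of -2.40. RPA12, of polymerase I, stood at 159 CPM in both glucose libraries and 8.37 and 16.7 CPM without glucose (-3.61 ± 0.19), and RPC19, shared by both enzymes, had -3.21 ± 0.15. The member that rose was MAF1, the repressor of RNA polymerase III (1.59 ± 0.20). Of 38 translation factors 34 were lower and 0 were higher, with a median of -1.69, among them TEF4, of the elongation factor 1 complex (-2.59 ± 0.12), and the release factor gene SUP45 (-2.36 ± 0.13). DED1 (-0.33), CAM1 (-0.12), ANB1 (0.10) and GCD2 (0.49) did not pass the test.

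Of 63 genes of amino acid synthesis 44 were lower and 7 were higher, with a median of -1.07, among them HIS1 (-2.95 ± 0.13) and ILV5 (-2.93 ± 0.17). LEU2 rose by 2.08 ± 0.18. Of 25 genes of purine and pyrimidine synthesis 19 were lower and 4 were higher, with a median of -1.29, among them ADE4 (-2.69 ± 0.14) and IMD3 (-2.50 ± 0.14). Of 26 ergosterol genes 18 were lower and 4 were higher, with a median of -0.79, among them ERG3 (-2.0 ± 0.14) and ERG11 (-1.87 ± 0.16). Of 32 cell cycle regulators 23 were lower and 4 were higher, with a median of -1.17. The S phase cyclin gene CLB6 stood at 60.8 and 45.5 CPM with glucose and 2.04 and 4.6 CPM without it, and the G1 cyclin gene PCL1 at 51.0 and 53.4 CPM against 3.68 and 4.36 CPM. POL30, the replication clamp, fell by 2.51 on the log2 scale. WHI5, the inhibitor of G1 transcription, rose, from 5.25 and 6.09 CPM to 35.5 and 35.97 CPM (2.64 ± 0.22). Of 14 mating genes 9 were lower and 2 were higher, with STE2, a pheromone receptor, at -2.23 ± 0.15 and the G protein gene GPA1 at -1.71 ± 0.15.

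Of 32 genes of autophagy and vacuolar proteases 30 were higher and 0 were lower, with a median of 2.00. ATG8, the autophagosome coat protein, stood at 32.6 and 33.1 CPM with glucose and 556 and 617 CPM without it (4.16 ± 0.18), and APE1, a vacuolar aminopeptidase and autophagy cargo, had a difference of 3.81 ± 0.18. Of 28 genes of oxidative stress defence 20 were higher and 2 were lower, with a median of 1.22 and with PRX1, a mitochondrial peroxiredoxin, at 4.19 ± 0.17 and GPX1, a glutathione peroxidase, at 3.91 ± 0.18. Scaled to the spike-in, 13 of these were higher and 6 lower. Of 36 proteasome genes 23 were higher and 1 was lower, with a median of 0.43. RPN4, the activator of proteasome genes, rose by 1.77 ± 0.17 and PRE2, a catalytic subunit, by 0.95 ± 0.12. The proteasome count was 13 without replicate 1 of the glucose libraries, and 1 higher and 9 lower with the spike-in scaling, where the median was -0.24.

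Of the mRNA decay list of 38 genes 4 were higher and 15 were lower, with a median of -0.24, and the median was 0.07 with library totals. The genes that rose were EDC2, a decapping enhancer (3.39), NGR1, an RNA-binding protein (2.07 ± 0.13), DHH1, a decapping helicase (1.99 ± 0.16), and SBP1, a translation repressor (0.93). Of 11 histone genes 4 were higher, among them HTA1 (0.76 ± 0.17) and the linker histone gene HHO1 (0.54 ± 0.14), and 1 was lower, with a median of 0.38. With the spike-in scaling 0 histone genes were higher and 4 were lower. Among all genes 40.0% were higher and 36.9% lower, so the 4 of 11 histone genes that were higher and the 15 of 38 mRNA decay genes that were lower lie near the background and are no result about these lists. The same holds for the 9 of 23 glycolysis genes that were higher. Of 19 meiosis genes that passed the filter on low counts, out of 21 with a feature, 11 were higher and 2 were lower, with a median of 0.88 and with REC107, of meiotic recombination, at 2.34 ± 0.17 and SPS100, of the spore wall, at 1.70 ± 0.24. Scaled to the spike-in, 5 of these were higher and 5 lower.

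Each condition at 45 min was also set against its own 0 min libraries. In the main scaling 2120 genes were higher (38.4%) and 2086 lower (37.8%) at 45 min without glucose, and 248 were higher (4.49%) and 182 lower (3.29%) with glucose. The counts with glucose fell to between 160 and 172 higher and between 88 and 120 lower when any 1 of its 4 libraries was left out. With library totals 2083 genes were higher and 2102 lower without glucose, and 149 higher and 2061 lower with it, and with the spike-in 795 and 3431 without glucose and 20 and 682 with it. How much of the 45 min difference lies in either course thus depends on the scaling. These contrasts share the 45 min libraries with the main comparison. The ribosomal protein genes moved in both courses: 134 of 138 were lower at 45 than at 0 min without glucose (median -1.88), and 129 of 138 were higher with glucose (median 0.88), where the median of all genes was -0.01. The rise with glucose depends on the scaling, with 114 higher and 3 lower with library totals and 8 higher and 1 lower with the spike-in (median 0.45). Their reads per spike-in read at 45 min were 1.87 and 1.05 times those at 0 min in the courses with glucose, and 0.160 and 0.158 times in those without it. For all genes together these ratios were 1.27 and 0.74 with glucose and 0.51 and 0.47 without it, and list ratios are to be read against them. RPL7B (1.99) and RPL8A (1.76), of the large subunit, had the largest rises with glucose among the ribosomal protein genes named here. The general stress genes were 26.9 and 28 times as high per spike-in read at 45 as at 0 min without glucose, and 1.07 and 0.84 times with glucose.

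Before 45 min the number of genes that differed between the conditions grew from 6 higher (0.109%) and 22 lower (0.398%) at 0 min to 450 (8.14%) and 301 (5.45%) at 5 min, 1885 (34.1%) and 1637 (29.6%) at 20 min and 2117 (38.3%) and 1918 (34.7%) at 30 min. The median absolute log2 difference of all genes was 0.119 at 0 min, 0.825 at 30 min and 0.989 at 45 min. Of the 10 genes with the largest rises, RGI1, HXT6, TMA10, HXK1, HSP30 and HXT7 first passed the test at 5 min, and POT1, YNL194C, EGO4 and RGI2 at 10 min. The median difference of the heat shock chaperones was highest at 20 min (2.48), against 2.17 at 30 and 2.02 at 45 min. Their median change from 30 to 45 min was 0.23 without glucose and 0.28 with it, so they did not fall without glucose in that interval. In the test of the change of the difference from 30 to 45 min, given below, 0 of 27 chaperones were called. The gluconeogenesis list stood at 2.14 at 30 min and 3.04 at 45 min.

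**Figure D3:**
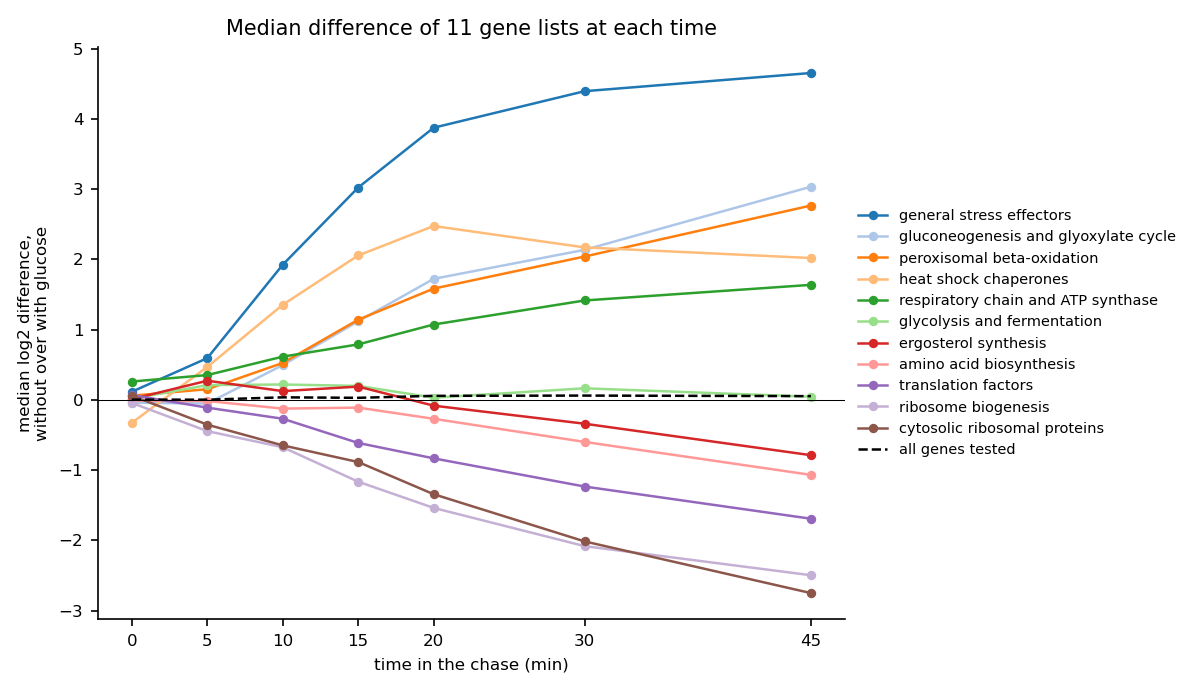
Median log2 difference, without over with glucose, of 11 gene lists at each time in the chase. General stress genes reach 4.65 at 45 min, the chaperones peak at 2.48 at 20 min, and ribosomal protein and ribosome biogenesis genes reach -2.75 and -2.50.

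Of the 2210 genes higher at 45 min, 1970 were also higher at 30 min (89.1% of those at 45 and 93.1% of those at 30 min), and of the 2036 lower genes 1778 were lower at 30 min (87.3% and 92.7%). The change of the difference between 30 and 45 min was tested as an interaction. It was higher at 45 min in 36 genes (0.652%) and lower in 187 (3.38%). Within the courses without glucose 334 genes rose (6.05%) and 708 fell (12.8%) from 30 to 45 min, and with glucose 3 rose (0.0543%) and 2 fell (0.0362%). The interaction counts rest on few libraries: without replicate 1 of the 45 min libraries lacking glucose they were 11 and 23, without replicate 2 of the 30 min libraries lacking glucose 10 and 20, without replicate 1 of the 45 min glucose libraries 11 and 31, without replicate 2 of these 13 and 62, and without replicate 2 of the 45 min libraries lacking glucose 47 and 347. Without replicate 1 or 2 of the 30 min glucose libraries 86 and 102 genes were lower. With the spike-in scaling the counts were 4 and 36, and DESeq2 called 71 and 267.

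JEN1 had the largest further rise among genes past the test, with a log2 difference of 4.35 at 30 min and 6.41 at 45 min (difference 2.07, adjusted p = 0.00055 in edgeR's quasi-likelihood test). PDH1, a mitochondrial enzyme of propionate use, went from -0.54 to 1.44 (difference 1.98), and its neighbour CIT3, a mitochondrial citrate and methylcitrate synthase, from 1.96 to 3.82 (difference 1.86). CAT2, a carnitine acetyltransferase, went from 2.59 to 4.43 (difference 1.85), YIG1 from 2.54 to 4.48 (difference 1.95) and BOP2 from 2.01 to 3.86 (difference 1.86). The calls of CIT3, YIG1 and BOP2 were lost when certain single libraries were left out, and those of JEN1, PDH1 and CAT2 were not. HXT7 gained a further 1.17. In the gluconeogenesis list 4 of 20 genes were higher in the interaction and 0 were lower, with a median of 0.72, beside -0.04 for all genes.

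In the interaction 71 of 138 ribosomal protein genes were lower and 0 were higher, with a median of -0.71. That count was 7 without replicate 1 of the 45 min libraries lacking glucose, 6 without replicate 2 of the 30 min libraries lacking glucose, 10 and 24 without replicate 1 or 2 of the 45 min glucose libraries, 19 without replicate 1 of the 30 min glucose libraries and 7 with the spike-in, while the median stayed between -0.95 and -0.57 in these settings. RPL8A went from -1.33 at 30 min to -2.94 at 45 min (difference -1.62), and RPL7B from -2.75 to -4.41 (difference -1.66). MET6, the methionine synthase, went from -0.30 to -1.96 (difference -1.66), MET17, of homocysteine synthesis, from -0.43 to -2.01 (difference -1.58), and SHM2, the cytosolic serine hydroxymethyltransferase, from -0.94 to -2.38 (difference -1.44). MIG2, a glucose repressor, went from 0.56 to -1.09 (difference -1.65), a call lost without some single libraries. MIG2 was already at -1.14 at 0 min, and its change from 0 to 45 min was -1.07 without glucose and -1.12 with it. HXT1, seen above to be lower at 45 min, had -0.29 at 30 min (difference -1.32). In the amino acid list 10 of 63 genes were lower in the interaction and 0 higher, with a median of -0.43.

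**Figure D4:**
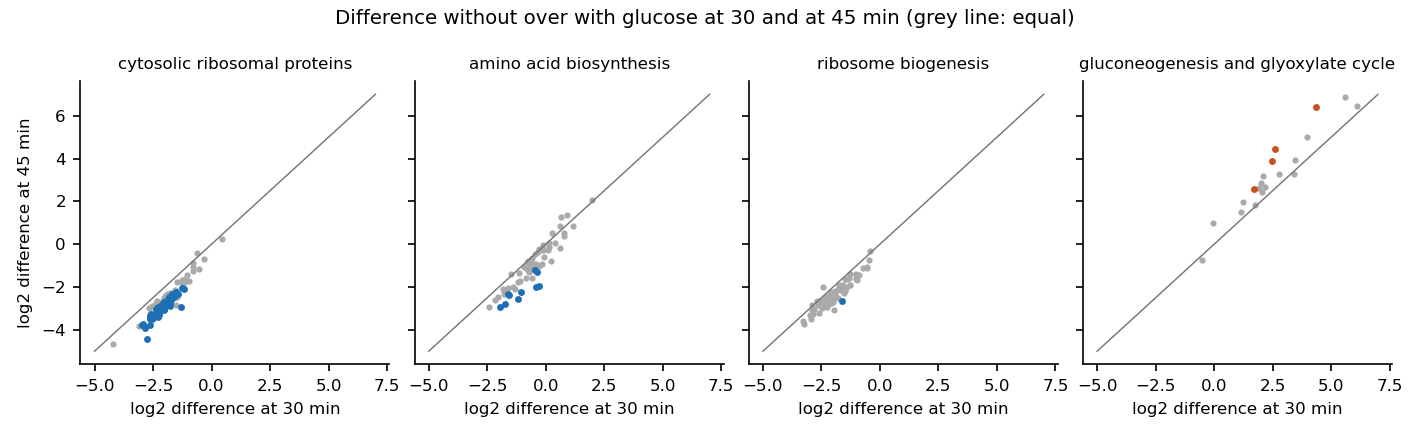
Log2 difference at 45 min against that at 30 min for the tested members of 4 gene lists, with the line of equality. Blue and orange points passed the interaction test at an adjusted p of 0.05 (lower and higher at 45 min), and 71 of 138 ribosomal protein genes and 10 of 63 amino acid genes are blue, and 4 of 20 gluconeogenesis genes orange.

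The abundance comparison used all reads and did not set labelled reads apart. The labelled share is thus another readout of the same reads and libraries, and not a separate measurement. At 45 min labelled reads made up 18.8% and 18.3% of reads with glucose and 34.9% and 38.9% without it. The means were 18.6% ± 0.337 and 36.9% ± 2.76 (SD, n = 2 each), and the groups did not overlap, but an exact two-sided permutation test of 2 against 2 cannot go below the p of 0.333 that it gave. The counting intervals of these shares (exact binomial, 95%) are narrower than 0.1 percentage points and cover counting error only. Total RNA without 4TU had 0.0397% labelled reads with glucose and 0.0502% after 30 min without it, from 1 library each. The spike-in reads of the 45 min libraries had 0.346% to 0.429%. A lower labelled share can come from labelled mRNA being lost or from unlabelled mRNA being made, which cannot be told apart here. Labelled reads at 45 min need not all stem from RNA made before the chase. General stress mRNAs were 26.9 and 28 times as high per spike-in read at 45 as at 0 min without glucose. Their median labelled share there was 59.0% and 55.7% at 0 min and 25.8% and 29.4% at 45 min. Whether labelled RNA was still made during the chase was not tested.

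Gene by gene, the odds of a labelled against an unlabelled read were higher without glucose in 5097 of 5247 genes tested (97.1%) and lower in 0, by edgeR's quasi-likelihood test, with a median log2 difference of 2.01. At an unadjusted p of 0.05 these counts were 5099 and 0. At an adjusted p of 0.05 relative to the median gene of each library, a setting added after the data were seen, 864 genes had higher odds (16.5%) and 637 lower odds (12.1%). At 0 min the median gene had 58.2% and 58.5% labelled reads with glucose and 60.2% and 60.6% without it. At 45 min it had 10.4% and 11.3% with glucose and 31.0% and 34.8% without it. The genes lower by at least 2 in abundance had medians of 50% and 54.1% without glucose, and those higher by at least 2 had 26.1% and 28.6%. With glucose the same groups of genes had 11.04% and 11.8%, and 10.96% and 12.4%. These groups were chosen by abundance in the same libraries, and all reads of a gene are the denominator of its share.

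Ribosome biogenesis mRNAs had 53.7% and 55.6% labelled reads without glucose at 45 min, against 9.05% and 10.1% with glucose, and 56.5% and 57.0% without glucose at 0 min. Relative to the median gene 82 of 86 had higher labelled odds and 0 lower, as had 19 of 24 genes of RNA polymerases I and III and 28 of 36 translation factors, of which 3 were lower. NOP1 had 62.7% and 69.9% labelled reads without glucose and 16.4% and 15.3% with it. RPA12 had 65.9% and 67.9% against 8.24% and 9.93%. Ribosomal protein mRNAs differed from these in the glucose libraries, where their median was 22.7% and 21.1%, with 34 of 138 higher and 44 lower relative to the median gene. General stress mRNAs had 25.8% and 29.4% without glucose, and 16 of 34 were lower and 1 was higher relative to the median gene. RGI1 had 24.2% and 24.9% without glucose and 28.4% and 26.3% with it, so that its labelled share differed little between the conditions (log2 odds -0.20 ± 0.21) while its abundance differed 381-fold. HXT7 had 34.4% and 37.7% against 20.9% and 20.1% (log2 odds 1.13 ± 0.11). YCL048W-A, YGR174W-A and DBP1, with the largest rises of labelled odds, had 0 labelled reads in both glucose libraries, so no fold is given, and MNT4 had 1 labelled read in each.

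**Figure D5:**
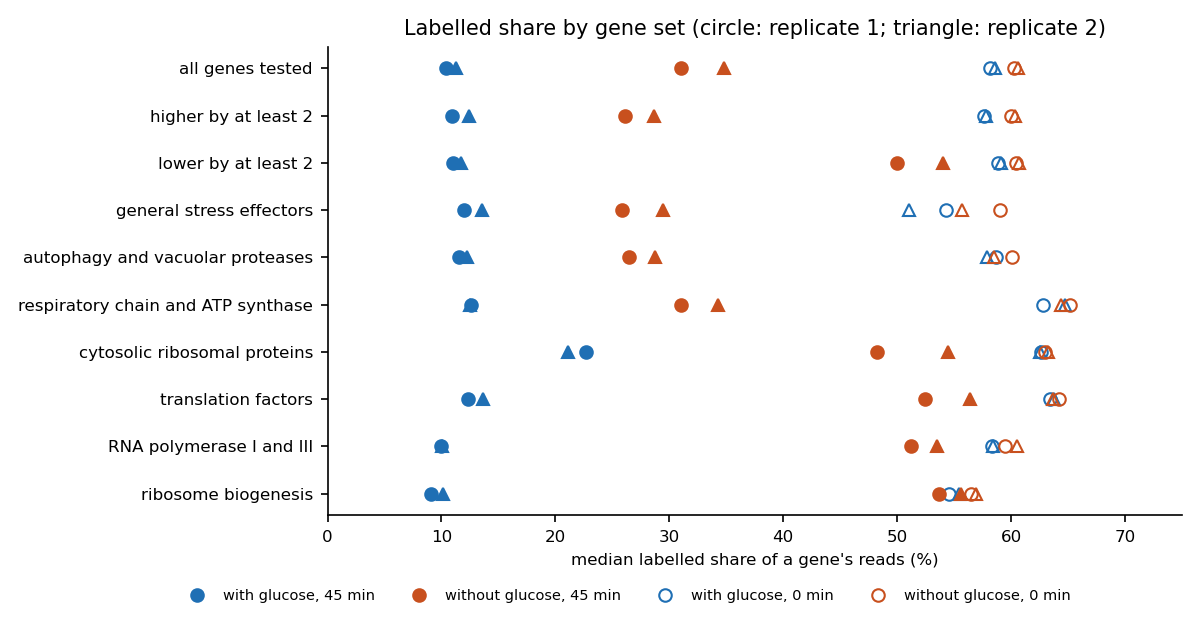
Median labelled share of a gene's reads in percent, for all genes, genes with an abundance difference of at least 2 (log2) and 7 gene lists, with filled points for 45 min, open points for 0 min and a point for each library. All sets start near 50% to 65%. At 45 min without glucose ribosome biogenesis mRNAs have 53.7% and 55.6%, and general stress mRNAs 25.8% and 29.4%.

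Total RNA of strain KWY11376 shares no library with the chase. There 1761 of 5536 genes were higher without glucose (31.8%) and 1817 lower (32.8%), and with library totals 1172 were higher and 2560 lower. Of the genes higher at 45 min in the chase, 1323 were higher in KWY11376 (59.9% of the chase calls and 75.3% of the KWY11376 calls) and 212 were lower (9.59%), and of the lower ones 1217 were lower (59.8% and 67.0%) and 170 higher (8.35%). General stress and gluconeogenesis genes moved alike, with 33 of 34 higher (median 2.86) and 18 of 20 higher (median 2.64). Other stress and carbon lists matched less closely. Of 27 chaperones 17 were higher and 3 lower, and of 41 respiratory genes 32 were higher. Of 15 genes of hexose transport and phosphorylation 11 were higher and 0 lower, against 13 and 2 in the chase. Of 23 glycolysis genes 10 were higher and 1 lower (median 0.45), against 9 and 5 in the chase. HXT7 rose by 4.48 there and POT1 by 5.79. Ribosome biogenesis genes were lower in 81 of 86 (median -1.67). Ribosomal protein genes were not: 45 of 138 were higher and 17 lower (median 0.18), and 22 higher and 56 lower with library totals (median -0.22). In the main scaling the 45 that were higher lie near the 31.8% of all genes and are no result about this list. The 17 that were lower lie below the 32.8% of all genes. The number higher was 21 and 28 without replicate 1 or 2 of the libraries lacking glucose, and 71 without replicate 2 of the glucose libraries. The number lower was 7 when either library lacking glucose was left out and 32 without replicate 1 of the glucose libraries. RPL7B had 0.86 and RPS9B 0.42 there, against -4.41 and -3.75 at 45 min in the chase. Proteasome genes had 29 of 36 lower (median -0.91) and mitochondrial ribosome genes 20 of 43 lower (median -0.37), where 1 member of each was higher. Labelled reads were only 1.79% and 1.65% of these libraries without glucose, unlike in the chase. Strain, time and labelling scheme, and possibly RNA selection and library kit, differ together between the sets and cannot be told apart, and the difference between them was not tested.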

How the data were processed

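Read counts, labelled read counts and multimapped read counts are the deposited whole-number counts per feature from slamdunk 0.4.3, as the authors ran it per the file headers. Per the labels' protocols, chase RNA was alkylated and a QuantSeq kit gave reads from 3′ ends; the kit of the KWY11376 libraries is not tied to single samples. The submitters' processing notes also name featureCounts, TopHat2, Bowtie and cutadapt, without their roles. How many conversions define a labelled read, and on which genome build, is not stated there. A feature absent from a library was counted as 0, and 5558 of 5560 names matched a locus tag of a RefSeq gene table. Depth ran from 2710630 to 10591665 reads in the chase and 14965187 to 31069123 in total RNA of KWY11376, and multimapped reads were 0.456% to 1.32%.

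Samples were grouped by title. Abundance was tested with edgeR 4.0.16 in R 4.3.3 (TMM, its expression filter, robust quasi-likelihood, Benjamini-Hochberg, threshold 0.05) over 28 chase libraries in 14 groups without a block, and separately over 4 KWY11376 libraries. CPM values are counts relative to the TMM-scaled library size. Labelled odds were tested with labelled and unlabelled columns, an intercept per library and genes with a mean of at least 50 reads and 10 labelled reads in sum. Shares were compared in SciPy 1.17.1. Alternatives were DESeq2 1.42.0, its size factors, library totals, spike-in scaling over 9 features (6 with reads), no filter, the 4 libraries alone, multimapped reads subtracted, a minimum of 200 reads, the block, and omission of each library. On simulated data the test recovered 88% of changed genes at a log2 change of 1 and 100% at 2 for the 45 min comparison. It recovered 64% and 97% for the 45 against 30 min difference and 61% and 97% for labelled odds. The simulated data had few changed genes in otherwise equal groups, whereas most genes were called in the 45 min comparison. These rates may therefore not carry over to the data.

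The comparison and the 26 gene lists were chosen with earlier results of these data known, and 12 list members had no feature. Named genes were the 10 largest changes in each direction past the threshold with a mean of at least 100 reads, no overlap and at most 20% multimapped reads, the 2 list members with the smallest p-value, the 6 largest in each direction for the 45 against 30 min difference, and the 4 largest for labelled odds. Other members were chosen after their values were seen. Promoter sequences were not analysed here.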

Additional observations from a re-analysis of the deposited data

Results flagged for a closer look

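The effect of glucose withdrawal was tested for a difference between 45 and 30 min, and the genes and counts that passed are given here because an effect differed between times. The difference was higher at 45 min in 36 genes and lower in 187. Among the named genes it was 2.07 (log2) for JEN1, 1.98 for PDH1, 1.95 for YIG1, 1.86 for CIT3, 1.86 for BOP2, 1.85 for CAT2 and 1.17 for HXT7. It was -1.66 for MET6, -1.66 for RPL7B, -1.65 for MIG2, -1.62 for RPL8A, -1.58 for MET17, -1.44 for SHM2, -1.15 for RPS22A, -1.06 for RPS17B, -0.83 for RPS9B, -0.80 for RPS9A and -0.80 for NIP7. The counts depend on single libraries, as given beside them above, and the 30 and 45 min libraries of a condition may stem from the same culture.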

How the results depend on the processing

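The counts at 45 min stayed within 1993 to 2095 higher and 1921 to 1946 lower genes when each library was left out. With the spike-in scaling, genes higher at 45 min numbered 1086, the difference between 45 and 30 min was higher in 4 and lower in 36 genes, 795 genes were higher and 3431 lower at 45 against 0 min without glucose, and 20 higher and 682 lower with glucose. Library totals gave 149 higher and 2061 lower at 45 against 0 min with glucose, and 1172 higher and 2560 lower in KWY11376. DESeq2 called 71 genes higher in the difference between 45 and 30 min. Leaving out each library gave 10 to 47 higher and 20 to 347 lower genes in that difference, and 160 to 172 higher and 88 to 120 lower genes at 45 against 0 min with glucose. Labelled odds relative to the median gene were higher in 864 and lower in 637 genes. In the main test of labelled odds, which is not relative to the median gene, 5097 genes were higher and 0 lower. Leaving out each library in that main test gave 0 to 1 lower. The list medians changed sign with the spike-in for glycolysis (-0.67), mitochondrial ribosome (-0.29), histones (-0.30) and proteasome (-0.24), and with library totals for mRNA decay (0.071), as did HHO1 with the spike-in (-0.15). Each of these scalings applies the same factor to all genes of a library. The median of all genes moved in the same direction, as given above, so these sign changes are not particular to the lists. MRPL38, MRPL24, HTA1 and PRE2 were no longer called with the spike-in. The replicate block gave 2208 higher and 2042 lower genes at 45 min, 46 and 221 for the difference between 45 and 30 min, 2137 and 2107 without glucose, 270 and 228 with glucose and 1692 and 1741 in KWY11376. Replicate differences of the conditions correlated at -0.243 at 45 min and -0.0126 in KWY11376, so no shared replicate effect was seen. This cannot settle whether the replicate numbers pair the samples, which no source states. A crossed pairing, added after the data were seen, gave 2232 and 2055.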

Other observations

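Genes that already differed between the courses at 0 min were looked at after the counts were seen. The 6 that were higher in the courses without glucose were ZRT1, a high-affinity zinc transporter (log2 difference 3.26), ZPS1 (1.57), ZRT2, a low-affinity zinc transporter (1.53), MMO1 (1.41), ZAP1, a zinc-responsive activator (1.35), and YGL088W (0.79). At 45 min the differences were 1.40 for ZRT1, 1.44 for ZPS1, -0.30 for ZRT2 and 0.93 for ZAP1. Of the 22 that were lower at 0 min, several were higher at 45 min: MPC3, a mitochondrial pyruvate carrier subunit, went from -1.24 to 6.59, the transporter gene HXT2 from -1.24 to 3.53, and CIT2, the peroxisomal citrate synthase, from -1.53 to 1.81. PHO84, the high-affinity phosphate transporter, was lower at both times, at -1.09 and -3.35. The 45 min comparison takes no account of these differences at 0 min, and whether they persisted to 45 min was not tested.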
